A study of Rattus norvegicus with 20 samples.

Results

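The sterol sensing machinery that governs SREBP (sterol regulatory element binding protein) was followed in foetal rat testis through its 5 genes, Insig1, Insig2, Srebf1, Srebf2 and Scap. The members were chosen by name. All probes whose gene name on the array, without a "_predicted" ending, was one of these 5 were taken. They came to 12 of the 41012 probes of the array, and 5 of its 35737 gene names. Insig1 had 4 probes, Srebf1 3, Insig2 and Srebf2 2 each, and Scap 1. The filter on low signals left 9 of the 12, with at least 1 probe for each gene.

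Testes were dissected from male foetuses of Han Wistar dams that had been dosed by oral gavage every day from gestation day 12 to 19. The dams received corn oil alone (Control) or, at 500 mg/kg, DEHP, its monoester metabolite MEHP, TOTM or EHO, which the labels give by that code alone. DEHP is di(2-ethylhexyl) phthalate, a diester plasticizer, and TOTM is tris(2-ethylhexyl) trimellitate, a triester that carries the same alcohol groups. The doses of the 4 compounds were equal by mass but not by mole. Each of the 20 arrays, 4 per group, held RNA from the pooled testes of at least 3 pups of a litter. Fewer cells of a type in a pool cannot be told apart from less RNA per cell.

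In sterol-replete cells, SCAP, the escort and cholesterol sensor, is held in the endoplasmic reticulum by INSIG proteins together with the SREBP precursor. When sterol falls, SCAP carries SREBP to the Golgi, where it is cut, and the freed factor switches on genes of cholesterol and fatty acid synthesis. Srebf2 encodes SREBP-2, which mainly drives cholesterol genes, and Srebf1 encodes SREBP-1, which mainly drives fatty acid genes. Insig1 is itself a target of SREBP and closes a feedback loop, whereas Insig2 transcription is known to depend far less on SREBP. Foetal Leydig cells use cholesterol as the substrate of testosterone synthesis.

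The promoters of both INSIG genes and of Srebf2 are shown because the array values below separate Insig1 from the other members. RefSeq windows on the GRCr8 build were found for all 5 genes (6 windows, since Srebf1 has 2), each from 250 bases before to 50 bases after a start site. The 250 bases before the start site are printed 5′ to 3′. Capitals mark a CCAAT box (CCAAT, or ATTGG on this strand), an E-box (CANNTG) or the sterol regulatory element core TCACNCCA. The Insig1 window lies at chr4:8057770-8058019, minus strand, the Insig2 window at chr13:35040099-35040348, minus strand, and the Srebf2 window at chr7:115543057-115543306, plus strand.
Insig1: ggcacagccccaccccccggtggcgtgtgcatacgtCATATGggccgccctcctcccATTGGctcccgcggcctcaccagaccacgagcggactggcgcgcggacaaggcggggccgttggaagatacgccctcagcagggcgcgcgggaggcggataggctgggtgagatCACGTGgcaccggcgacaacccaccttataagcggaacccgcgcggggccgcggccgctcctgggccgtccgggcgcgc
Insig2: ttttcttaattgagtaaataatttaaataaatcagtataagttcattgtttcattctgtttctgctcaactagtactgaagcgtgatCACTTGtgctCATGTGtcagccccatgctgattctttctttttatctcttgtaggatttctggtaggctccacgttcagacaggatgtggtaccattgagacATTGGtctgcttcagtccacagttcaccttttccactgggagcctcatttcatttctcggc
Srebf2: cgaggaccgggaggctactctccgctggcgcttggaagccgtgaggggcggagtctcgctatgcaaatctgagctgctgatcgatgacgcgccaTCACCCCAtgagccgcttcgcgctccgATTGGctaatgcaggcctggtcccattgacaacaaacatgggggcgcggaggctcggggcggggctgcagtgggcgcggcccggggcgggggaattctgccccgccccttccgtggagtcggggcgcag

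The Insig1 window held 1 CCAAT box on the opposite strand, 193 bases before the start site, and 2 E-boxes, of which the palindrome CACGTG began 79 bases before it. Insig2 held 1 CCAAT box and 2 E-boxes, in a stretch with 40% G and C against 72.8% for Insig1. Srebf2, whose own transcription is known to respond to SREBP, held TCACCCCA 156 bases before its start site and a CCAAT box 129 bases before it. Of the windows not printed, that of Scap also held CACGTG, 50 bases before its start site, and 0 CCAAT boxes. The 2 Srebf1 windows held 2 and 1 CCAAT boxes and 3 and 1 E-boxes, so these matches do not set Insig1 apart. Both strands were searched over all 33469 windows of 300 bases. CCAAT was in 37.5% of them, CANNTG in 72.1%, TCACNCCAC in 1.12% and its first 8 letters, TCACNCCA, a search added after the sequences were seen, in 3.89%. TCACNCCAC was in 0 of the 6 windows of these genes. Of the 16 windows found for the SREBP-2 target genes described further on, 13 held a CCAAT box, 8 an E-box, 1 TCACNCCA and 0 TCACNCCAC. A match is a description of letters and was not tested as a binding site.

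Levels are given as log2 of the processed signal minus the 75th percentile of its array, so that 0 is the level of a probe at that percentile. They compare samples for 1 probe and do not rank genes or probes against each other. The arrays MEHP 1 and MEHP 2 differed by 0.795 times the noise between repeated spots, less than sampling noise, and were counted as 1 sample (n = 3 for MEHP, n = 4 elsewhere, 19 samples in all). Pairs of arrays from 1 group differed by a median of 2.32 times that noise. Control 2 and MEHP 3, which carry different labels, differed by 1.29 times it, and DEHP 3 and MEHP 4 by 1.38 times. The Insig1 differences and the counts of called SREBP targets are therefore also given without MEHP 3. Most other MEHP values, such as those of named genes and markers, are given only with it. EHO arrays had 45.4% to 62.9% of probes well above background, against 63.4% to 79.4% for the other groups. All 4 arrays of a group shared a slide that held no other group, and the effects of slide and dosing cannot be told apart. Markers of Leydig, Sertoli and germ cells were detected: 8 of 9, 7 of 8 and 4 of 5 probed genes were well above background on all arrays.

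Insig1 was the only one of the 5 genes with a called difference, on 1 probe with EHO, where limma called 33.5% of all probes. With DEHP its level was lower than in controls by a factor of 1.87 to 2.03 on the 4 probes and separated from them, without passing the threshold. Its 4 probes lie on the minus strand of chromosome 4 between positions 2577508 and 2578760 of the rn4 build, numbered here from 5′ to 3′ along the gene, and the files give no exon for them. All 4 were well above background on all 20 arrays. On probe 4, the brightest, the controls read 4.25, 4.95, 4.302 and 4.37. DEHP arrays read 3.78, 3.86, 3.19 and 3.099, all below every control. MEHP 1, 2 and 4 read 3.20, 3.31 and 3.19, while MEHP 3 read 4.696, inside the control range. TOTM arrays read 4.01, 3.83, 3.89 and 3.97, a narrow band below every control. EHO arrays read 4.03, 3.79, 3.58 and 3.64, again below every control.

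The other 3 Insig1 probes gave the same picture for DEHP, MEHP and EHO and a different one for TOTM. On probe 3 the controls read 2.42, 2.65, 2.83 and 2.63, and DEHP arrays 1.65, 2.06, 1.54 and 1.70. MEHP arrays read 1.58, 1.62, 2.496 and 1.58, EHO arrays 2.31, 2.29, 2.14 and 2.04, and TOTM arrays 2.53, 2.31, 2.40 and 2.67. The DEHP and EHO arrays lay below every control there, and TOTM overlapped the controls. On probe 2 the controls spanned 0.20 to 0.49, DEHP -0.85 to -0.34, EHO -0.27 to 0.12 and TOTM 0.007 to 0.45. On probe 1 the controls spanned -0.59 to -0.28, DEHP -1.71 to -1.13, EHO -1.63 to -1.12 and TOTM -0.93 to -0.47. MEHP 3 stood at 0.36 on probe 2 and at -0.43 on probe 1, within the controls, and the other MEHP arrays lay at or below -0.68 and -1.57. Averaged over the 4 probes and set against the control mean, MEHP 3 was at 0.03 and MEHP 1, 2 and 4 were at -1.22, -1.21 and -1.12. EHO 1, at -0.42, was the highest of its group and lay close to TOTM 2.

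**Figure D1:**
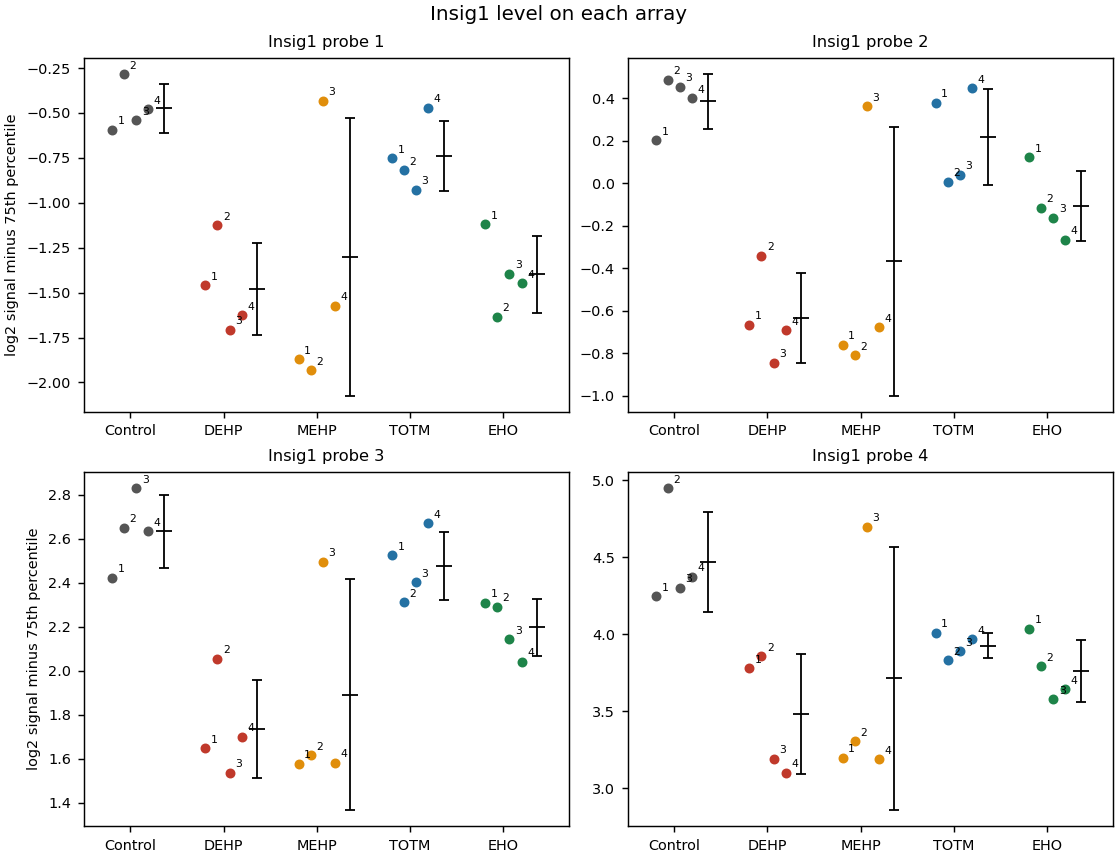
Level of the 4 Insig1 probes on each of the 20 arrays (y axis, log2 signal minus the 75th percentile of the array; x axis, group; small digits, replicate number; black mark and bar, mean ± SD with MEHP 1 and 2 counted as 1 sample). The DEHP and EHO arrays lie below all 4 controls in every panel, and MEHP 3 lies among the controls.

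With DEHP, the log2 difference of Insig1 from control was between -0.90 and -1.02 on the 4 probes, a control mean of 1.87 to 2.03 times the DEHP mean. The standard errors were 0.18 to 0.28, all 4 95% intervals lay below 0, and all 4 probes separated the DEHP arrays from the controls completely, as did 4.72% of all 27769 probes tested. The limma fit over all probes gave adjusted p-values of 0.116 to 0.448 for them (unadjusted 0.000109 to 0.00241), so 0 of the 4 passed the threshold of 0.05. In that comparison limma called 0 probes of the whole array (0%), with 949 at an unadjusted p under 0.05. Without MEHP 3, which enters this test through the shared variance, the differences were the same. Insig1 probes 1, 2 and 3 then passed, at limma adjusted p-values of 0.014, 0.00507 and 0.00839, among 27 probes called over the whole array. With other single arrays left out, the adjusted p-values of these 3 probes reached 0.762, 0.443 and 0.443.

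With MEHP, the difference was between -0.74 and -0.83 on the 4 probes, with standard errors of 0.19 to 0.30 and 95% intervals below 0. The groups overlapped on all 4 probes because of MEHP 3, and the limma adjusted p-values were 0.123 to 0.605, so 0 of 4 passed (0.663% of all probes were called, and 14.8% showed complete separation). Without MEHP 3 the differences were -1.26, -1.12, -1.04 and -1.25 for probes 1 to 4. In that fit, which called 139 probes of the whole array higher and 61 lower, all 4 passed, at limma adjusted p-values of 0.00273 to 0.0142. They were also past the threshold, at 0.00855 to 0.0258, when control 2 was left out with MEHP 3. Without MEHP 4 the differences were smaller, -0.69, -0.598, -0.59 and -0.49, with adjusted p-values of 0.614 to 0.929. Leaving out DEHP 3 with MEHP 4, the other similar pair, gave the same differences and 0 calls for MEHP.

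With EHO, Insig1 fell on probe 1 by 0.92 on the log2 scale (SE 0.24, limma adjusted p = 0.018). The other 3 probes differed by -0.49, -0.44 and -0.71, and their adjusted p-values were 0.0692, 0.0655 and 0.057. All 4 probes separated the groups, as did 16.2% of all probes. EHO was also the comparison with the most calls, at 33.5% of all probes, so 1 call among 4 Insig1 probes is not above background. For EHO the median difference of all probes was -0.25. Leaving out single arrays moved its 9307 calls to between 1284 (without control 1) and 12321 (without EHO 4). Relative to that median the 4 Insig1 probes were at -0.68, -0.24, -0.19 and -0.46. The call of probe 1 rested on EHO 2 and on the scaling: without EHO 2 its difference was -0.85 with an adjusted p of 0.0546, and under median scaling it was -0.33 with an adjusted p of 0.386, while probes 2 and 3 turned to 0.10 and 0.15. Median scaling moved the median of all probes to 0.35. Without MEHP 3 all 4 probes passed, at limma adjusted p-values of 0.0031 to 0.0271. That fit called 1467 probes of the whole array higher and 7551 lower. The share of probes above background moved with this group, and its part in the result was not tested.

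With TOTM, Insig1 differed from control by -0.27, -0.17, -0.16 and -0.54 on probes 1 to 4. The limma adjusted p-values were 0.546 to 0.866, and the 95% intervals all included 0. Relative to the median of all probes, -0.12, the 4 probes were at -0.15, -0.05, -0.04 and -0.42. Probe 4 alone separated the groups (8.07% of all probes did), and 0 of 4 passed against 0.202% of all probes. The intervals ran from -0.77 to 0.23, -0.60 to 0.26, -0.53 to 0.22 and -1.13 to 0.04 on probes 1 to 4. A fall of the size seen with DEHP on the same probe lay outside the intervals for probes 1, 2 and 3 and inside that for probe 4. Under quantile normalization probe 4 passed, at -1.05 with an adjusted p of 0.00621.

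**Figure D2:**
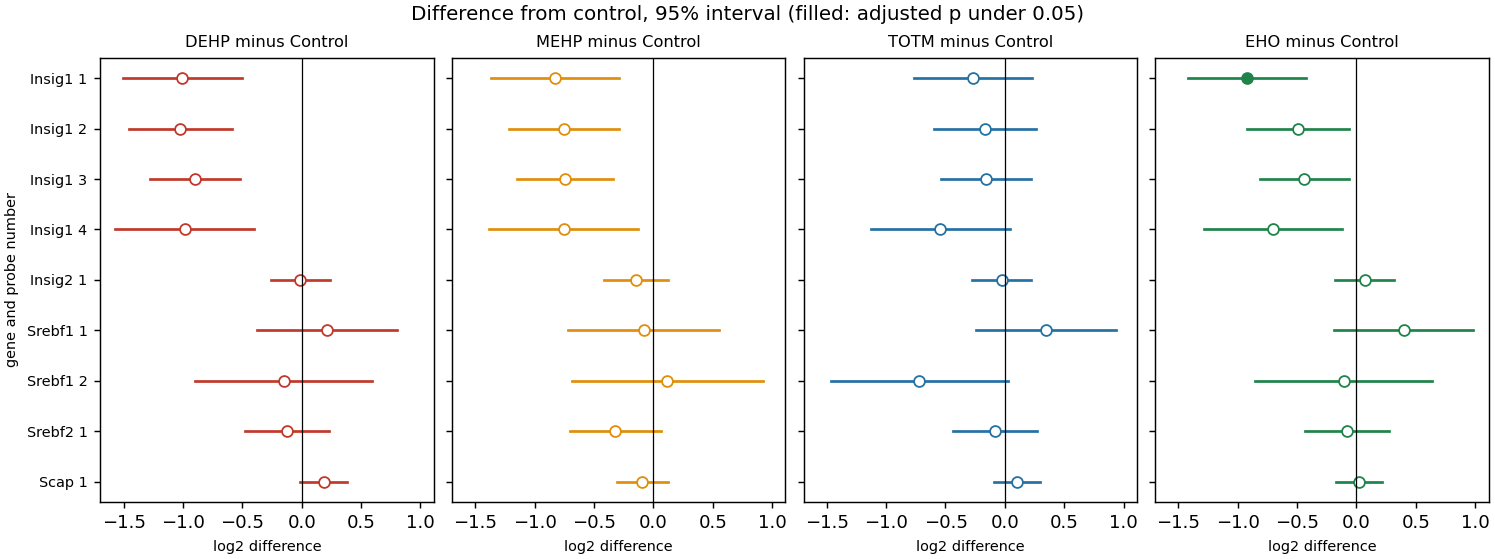
Log2 difference of each tested probe from control (x axis) with its 95% interval, by gene and probe number (y axis), for the 4 compounds; filled points have a limma adjusted p under 0.05. Insig1 probes lie left of 0 for DEHP, MEHP and EHO, and only Insig1 probe 1 with EHO is filled.

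The authors' deposited table, which lists the probes they called for each compound with a signed fold change, holds all 4 Insig1 probes for DEHP, at -1.76 to -1.92, for MEHP, at -2 to -2.4, and for EHO, at -1.31 to -1.69. For MEHP these are larger in size than the ratios of control to MEHP found here, 1.67 to 1.78, and the reason was not tested. For TOTM the authors' deposited table lists Insig1 probe 4 alone, at -1.37. The only other members in the authors' deposited table are Scap for DEHP, with a positive fold change, and Srebf1 probe 1 for MEHP, at 1.6. The lists in the authors' deposited table hold 1004, 3827, 3298 and 4210 probes for DEHP, MEHP, TOTM and EHO, the last under a heading shortened to EH. These are 2.45%, 9.33%, 8.04% and 10.3% of the array.

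The 4 compounds were compared with each other in 6 pairs at equal dose by mass. In order of mean Insig1 level, control was highest and TOTM next on all 4 probes, and DEHP was lowest on all 4. EHO was above MEHP on probes 2, 3 and 4 and below it on probe 1. No neighbouring pair in this order differed by a called amount. The widest difference was between the triester TOTM and the diester DEHP, with TOTM higher by 0.74, 0.85, 0.74 and 0.44 on probes 1 to 4. Their 95% intervals ran from 0.24 to 1.24, 0.42 to 1.29, 0.37 to 1.12 and -0.14 to 1.03. The limma adjusted p-values were 0.462 to 1, in a comparison with 0 called probes (0%) and 838 at an unadjusted p under 0.05. TOTM and DEHP arrays did not overlap on probes 1, 2 and 3, but the share of all probes that separate these groups was not counted.

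The monoester MEHP was 0.16 to 0.27 above its diester DEHP on the 4 probes, with intervals that included 0 (for probe 3, from -0.25 to 0.57) and adjusted p-values of 1, against 1.07% of all probes called. Without MEHP 3 the sign turned, to between -0.26 and -0.095. These intervals do not show that the pair act alike. TOTM was 0.21 to 0.59 above MEHP (adjusted p 0.182 to 0.806; 1.47% of all probes called). EHO was 0.08 to 0.53 above DEHP (0.0912 to 0.827; 6.65% called). EHO lay between -0.10 and 0.30 of MEHP (0.309 to 0.923; 0.405% called). EHO was 0.16 to 0.66 below TOTM, with probe 1 at -0.66 and an adjusted p of 0.0535 (21.8% of all probes called). Thus 0 of the 24 Insig1 differences between compounds passed in limma, with 9 at an unadjusted p under 0.05. Without MEHP 3 limma called probe 2 for TOTM over DEHP (0.85, adjusted p 0.0345), among 10 probes of the whole array. It called probes 1, 2 and 3 for TOTM over MEHP (0.99, 0.95 and 0.89), among 199. Probes 2 and 3 for EHO over DEHP (0.53 and 0.46) and probe 1 for EHO under TOTM (-0.66, adjusted p 0.0108) were called too. Leaving out single arrays, calls over the whole array ran from 654 to 10051 for EHO against DEHP. For EHO against TOTM they ran from 1897 to 12375.

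Insig2, the paralog that holds SCAP in the endoplasmic reticulum without being part of the same feedback loop, stayed within a narrow range. Probe 1, on chromosome 13 (rn4 33333061 to 33333298, minus strand), read -0.33, -0.22, -0.48 and -0.49 in controls and -0.31, -0.34, -0.55 and -0.37 with DEHP. MEHP arrays read -0.63, -0.44, -0.37 and -0.68, TOTM arrays -0.48, -0.48, -0.41 and -0.27, and EHO arrays -0.04, -0.25, -0.50 and -0.45. Every compound group overlapped the controls. The differences from control were -0.01, -0.15, -0.03 and 0.07, and their 95% intervals together ran from -0.41 to 0.32. The DEHP interval for Insig2, from -0.26 to 0.24, did not reach the DEHP differences of Insig1. The second Insig2 probe was well above background on 11 of 20 arrays, none of them from EHO, and was not tested.

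Srebf2, the gene of SREBP-2, was measured by its probe 1 on chromosome 7 (rn4 120548399 to 120548458, plus strand). Controls read -1.26, -2.13, -1.56 and -1.62, a wider spread than in any compound group. DEHP arrays read -1.69, -1.72, -1.69 and -1.98, MEHP arrays -1.62, -1.96, -2.16 and -1.93, TOTM arrays -1.57, -1.62, -1.75 and -1.97, and EHO arrays -2.01, -1.65, -1.47 and -1.77. All groups overlapped. Differences from control were -0.13, -0.32, -0.08 and -0.08, and the limma adjusted p-values were 0.96, 0.894, 0.941 and 0.727. The widest of them, with MEHP, had a 95% interval from -0.70 to 0.06. The second Srebf2 probe was not well above background on any array.

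Srebf1, the gene of SREBP-1, had 2 tested probes that did not track each other. Probe 1 (chromosome 10, rn4 46463470 to 46463986, minus strand) is printed as 10 spots per array, whose SD was 0.035 to 0.101. Controls read 0.26, -0.52, 0.55 and 0.22 on it, and MEHP arrays 0.63, 0.67, -0.79 and 0.28. Control 2 and MEHP 3 were the lowest of all 20 arrays there. Probe 2 (46462235 to 46462294) read 2.24, 2.73, 2.00 and 2.05 in controls, and control 2 and MEHP 3 (2.71) were the highest of all arrays. TOTM 1 stood at -0.004 on probe 2, while TOTM 2, 3 and 4 read 1.94, 2.15 and 2.06, and TOTM 1 read 0.40 on probe 1, within its group. The TOTM difference of probe 2, -0.72 (SE 0.35, limma adjusted p = 0.54), thus came with an SD of 1.03 in the group, and without TOTM 1 it was -0.205 (SE 0.19). The remaining Srebf1 differences from control were between -0.15 and 0.40, and 0 of the 8 were called. The third probe was above background on 8 arrays and was not tested.

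Scap, the escort and cholesterol sensor, had 1 probe, on chromosome 8 (rn4 114761108 to 114761167, plus strand). Controls read 3.31, 3.43, 3.49 and 3.23, and DEHP arrays 3.58, 3.59, 3.52 and 3.51. The DEHP arrays lay just above every control, by 0.19 in the mean (95% interval -0.01 to 0.38, unadjusted p 0.0611, limma adjusted p = 0.96). Of all probes, 4.72% separated DEHP from control in either direction. MEHP, TOTM and EHO differed from control by -0.09, 0.10 and 0.02. MEHP was 0.28 below DEHP without overlap (95% interval -0.49 to -0.07, limma adjusted p 0.504), a separation not counted over all probes. The direction depended on the scaling: quantile normalization put Scap at -0.11 for DEHP, and at -0.42 and -0.36 for MEHP and EHO with adjusted p-values of 0.00957 and 0.00833.

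Of the 5 tested probes of Insig2, Srebf1, Srebf2 and Scap, 0 were called in any of the 4 comparisons with control or the 6 between compounds. Their lowest adjusted p-value against control was 0.274, for Srebf1 probe 1 with EHO, in a comparison where limma called 33.5% of all probes.

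**Figure D3:**
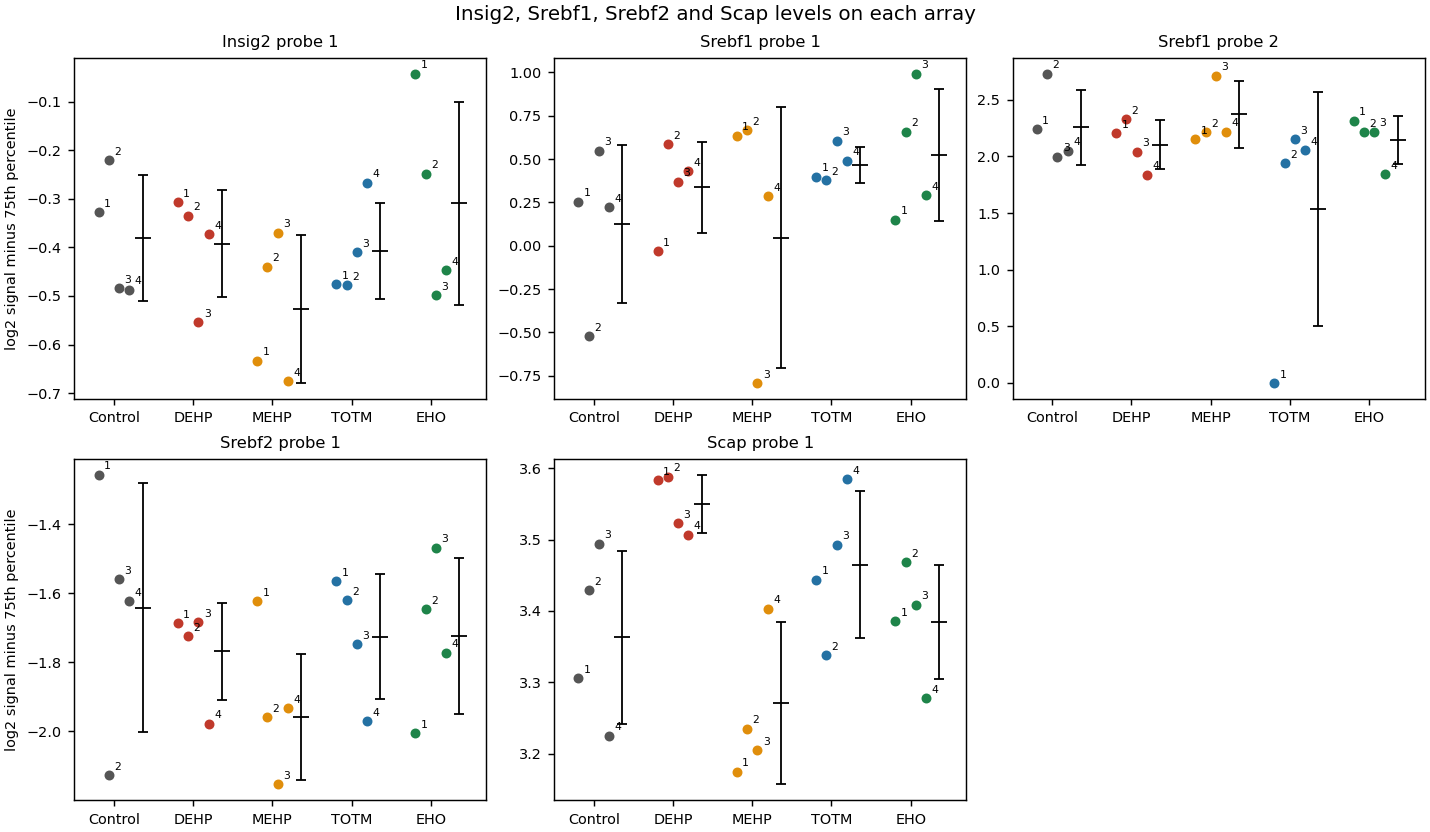
Level of the tested probes of Insig2, Srebf1, Srebf2 and Scap on each array (y axis, log2 signal minus the 75th percentile of the array; x axis, group; small digits, replicate number; black mark and bar, mean ± SD). Each compound group overlaps Control in each panel except DEHP for Scap, and TOTM 1 is the low point on Srebf1 probe 2.

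The targets of SREBP-2, genes of cholesterol synthesis and uptake, were mostly below control with DEHP and MEHP. Of 24 listed genes 22 were tested. With DEHP 21 of the 22 were below control, with a median of -0.51 against -0.12 over all probes, and limma called 0. With MEHP 22 of 22 were below control, with a median of -0.51, and 3 fell: Mvd, which makes isopentenyl diphosphate (-0.64), Sc5d (-0.67) and Dhcr7 (-0.76), which act late in cholesterol synthesis. With TOTM 15 were below control, with a median of -0.10 against -0.12 over all probes, and 0 were called. With EHO 18 were below control, with a median of -0.22 against -0.25, and Ggps1 (-0.36), Sc5d (-0.37) and the sterol carrier Stard4 (-0.42) fell. The 3 of 22 called with MEHP compare with 0.663% of all probes, and the 3 of 22 called with EHO with 33.5%, so the EHO count lies below the background. The counts depended on single arrays. Without MEHP 3 they were 5, 9, 0 and 5 for DEHP, MEHP, TOTM and EHO. Higher and lower calls over all probes were then 1 and 26, 139 and 61, 2 and 50, and 1467 and 7551. The MEHP count on this list was 0 without control 3, control 4 or MEHP 4. It was 1 without control 1, DEHP 3 or 4, EHO 2 or TOTM 1, 2 or 3. The EHO count was 0 without control 1, control 4 or EHO 2, and 1 without EHO 1.

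Named by the size of their differences, the genes that stood out on this list were Tm7sf2, Cyp51, Ebp and Hmgcs1. Tm7sf2, a sterol reductase, differed by -1.80, -1.39, -0.34 and -0.64 with DEHP, MEHP, TOTM and EHO (adjusted p 0.103, 0.0719, 0.769 and 0.109). Cyp51, the lanosterol demethylase, differed by -1.14, -1.003, -0.57 and -0.18. Ebp, a sterol isomerase, differed by -1.03, -0.86, -0.25 and -0.46. Hmgcs1, which makes HMG-CoA, differed by -0.96, -0.79, -0.40 and -0.43. None of these 4 was called, and these comparisons share the same control arrays.

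The targets of SREBP-1 in fatty acid synthesis were below control in 14, 11, 9 and 11 of 15 tested genes for DEHP, MEHP, TOTM and EHO, with medians of -0.28, -0.27, -0.10 and -0.12. Scd, the stearoyl-CoA desaturase, fell with MEHP (-1.17, adjusted p 0.00643) and EHO (-0.50, 0.0476), and its difference with DEHP was -1.26 at an adjusted p of 0.0745. Acss2, which makes acetyl-CoA, fell with EHO by 0.63 on the log2 scale. Acacb (-1.43), Thrsp (-1.24) and Gpam (-0.66) also fell with EHO, and limma called 0 of the 15 with DEHP or TOTM. The 5 of 15 called with EHO are about the share of all probes called there, 33.5%, so they are not a result about this list. That count was 0 without control 1, control 4, EHO 1 or EHO 2, and 3 without control 3. The MEHP count was 0 without MEHP 4, 2 without EHO 1 and 3 without MEHP 3, and the DEHP count was 1 without DEHP 2, MEHP 3 or MEHP 4. Fasn, the fatty acid synthase, differed by -0.06, 0.06, -0.11 and 0.21.

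Of 22 listed partners that cut, carry or degrade these proteins 14 were tested. Their medians were -0.09, -0.06, -0.07 and 0.08 with DEHP, MEHP, TOTM and EHO, against -0.12, -0.13, -0.12 and -0.25 over all probes. The single call was Sec24a, a COPII coat subunit, which rose with EHO (0.51, adjusted p 0.0457), 1 of 14 against 33.5% of all probes. The call was lost without any single control, without DEHP 1 or 2, without EHO 1, 2 or 3, without MEHP 4 and without TOTM 3 or 4, and 2 were called without EHO 4. Mbtps1, the site-1 protease that first cuts SREBP, differed by 0.18, -0.09, 0.33 and 0.50, with 0 calls. The COPII subunits Sec23a and Sec24d differed by -0.20, 0.04, -0.40 and 0.16 and by -0.14, -0.21, -0.83 and -0.85, also with 0 calls. On the LXR (oxysterol receptor) and sterol export side, limma called 0 of 16 genes with DEHP, MEHP or TOTM. With EHO, Apoe (0.59) and Lipa (0.51) rose, and Mylip (-1.18), Cyp7b1 (-0.93), Soat1 (-0.69), Abcg5 (-0.61) and Nr1h3 (-0.44) fell. These 7 of 16 stand against 33.5% of all probes called with EHO, and the count was 0 without control 1, 1 without EHO 1, 2 without control 4 or EHO 2, and 4 without control 2.

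**Figure D4:**
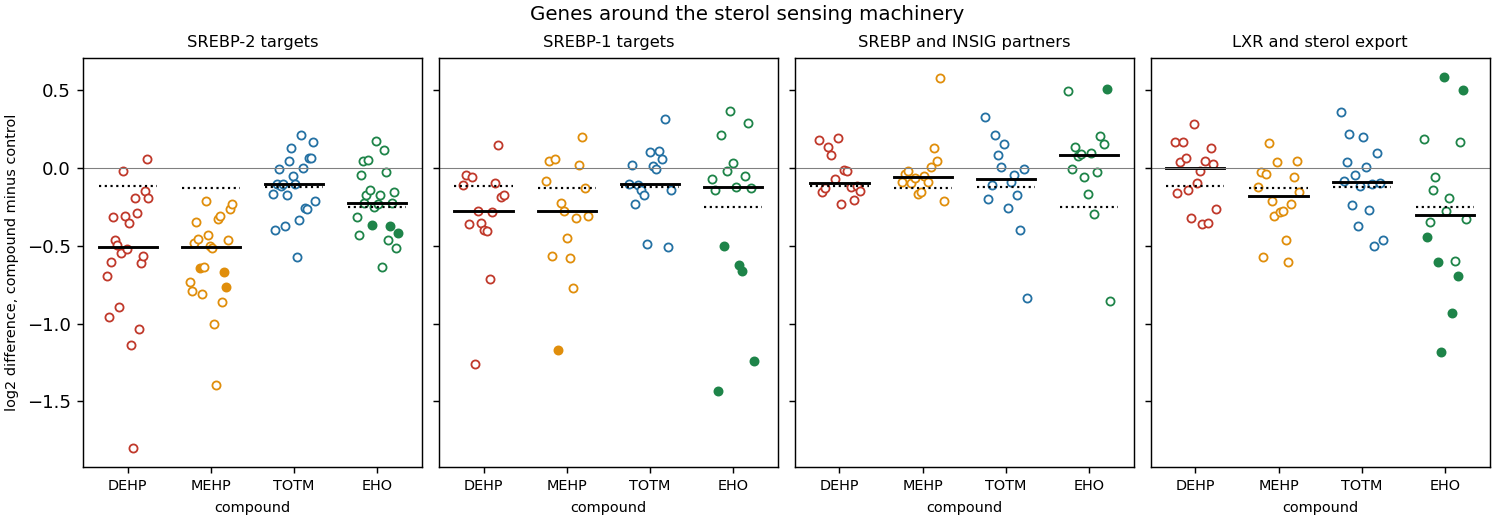
Log2 difference from control (y axis) of each tested gene on 4 lists around the sterol sensing machinery, by compound (x axis); filled points are called, solid bars are list medians and dotted bars the median of all probes. SREBP-2 targets lie below the dotted bar for DEHP and MEHP, with medians of -0.51, and near it for TOTM and EHO.

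The same targets were set against Insig1 array by array. Averaged over the 21 SREBP-2 targets with complete values and set against the control mean, DEHP arrays were at -0.54, -0.39, -0.66 and -0.61, and DEHP 2 was the highest of its group on both measures. MEHP arrays were at -0.77, -0.74, -0.29 and -0.69, so MEHP 3 was the highest of its group here as well, but below the control range of -0.12 to 0.18. TOTM arrays were at -0.22 to -0.05 and EHO arrays at -0.28 to -0.12.

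Markers of foetal Leydig cells, the cells that consume cholesterol for steroids, were also low with DEHP and with most MEHP arrays. All of the 9 listed markers but Cyp17a1 were tested against control. Of these 8 tested markers 7, 8, 6 and 7 were below control with DEHP, MEHP, TOTM and EHO, with medians of -0.996, -1.04, -0.11 and -0.52. limma called 0 of them with DEHP, MEHP and TOTM and Lhcgr (-1.03) with EHO, 1 of 8 against 33.5% of all probes. Lhcgr was well above background on only 13 arrays. Summed over the 7 markers with complete values on the linear scale, the level was 136 to 197 in controls, 62.1 to 88.4 with DEHP, 28.7 to 186 with MEHP, 113 to 149 with TOTM and 75.1 to 128 with EHO. MEHP 1 and 2 were lowest, at -2.22 and -2.12 against the control mean in log2, well under MEHP 4 at -0.89, whereas Insig1 was about equally low on the 3 arrays. Of the 9 listed markers 8 were well above background on all arrays, among them the untested Cyp17a1 but not the tested Lhcgr. The part of Leydig cell RNA in the Insig1 values was not tested.

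Markers of other cell types were read in the same way. Of 4 adrenal cortex markers 2 were tested, Cyp11b1 and Cyp11b2, well above background on 19 and 18 arrays. Their median difference was -1.38, -1.16, 0.04 and -1.38 with DEHP, MEHP, TOTM and EHO, and Cyp11b2 fell with EHO (-1.64). Their summed level was 1.04 to 1.79 in controls, 0.313 to 0.554 with DEHP, 0.283 to 1.64 with MEHP, 1.22 to 2.09 with TOTM and 0.494 to 0.963 with EHO. It was thus below every control with DEHP and EHO. Of all probes, 4.72% and 16.2% separated these groups from control, in either direction. Cyp21a1 and Mc2r did not pass the filter. Sertoli markers had medians of 0.12, 0.05, 0.06 and -0.15, and peritubular and interstitial markers -0.17, -0.10, -0.43 and 0.40. Gonocyte medians lay between -0.11 and 0.16, endothelial between -0.33 and -0.10, macrophage between -0.03 and 0.05, and mesonephric duct between -0.18 and 0.11. Erythroid medians lay between -0.21 and 0.06 except with EHO, at 0.66. With EHO limma also called Kit (-1.60), Cd163 (-1.60) and Dhh (-0.51) lower and Nr2f2 (0.51) and Pax2 (0.34) higher, against 33.5% of all probes. Kit and Cd163 were well above background on only 18 and 16 of the 20 arrays. With TOTM limma called Nr2f2 lower (-1.10), against 0.202% of all probes. The part of these cell types in the Insig1 values was not tested.

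**Figure D5:**
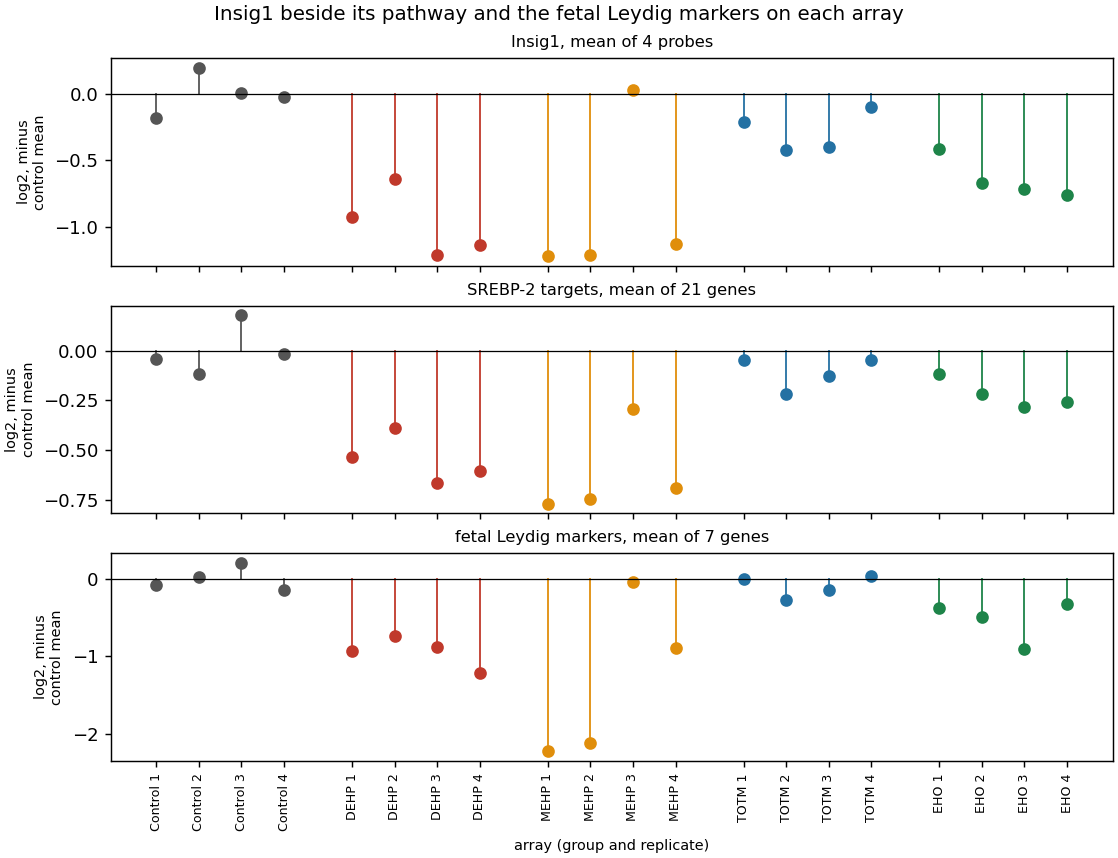
Insig1 (mean of 4 probes), SREBP-2 targets (mean of 21 genes) and foetal Leydig markers (mean of 7 genes) on each array, as log2 minus the control mean (y axis; scales differ between panels; x axis, array). DEHP arrays and MEHP 1, 2 and 4 are low in all 3 panels, and MEHP 3 lies at 0.03 for Insig1 and at -0.05 for the Leydig markers.

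The genes whose profile over the 19 samples lay closest to Insig1 probe 4 were sought among 5930 named genes well above background on all arrays. The closest was Hmgcs1, with a root mean square difference of 0.16 in log2, against 0.49 for the variation of Insig1 itself. Nr0b1, which encodes the orphan nuclear receptor DAX1, at 0.25, and Fdps, the farnesyl diphosphate synthase, at 0.26, followed. Nr0b1 differed from control by -0.68, -0.54, -0.37 and -0.54 with DEHP, MEHP, TOTM and EHO, with adjusted p-values of 0.0568 or more. For Scap, whose own variation was 0.12, the closest were Ccdc86, Kat5 and Atg101, at 0.086 to 0.088, and for Insig2 (0.14) they were Pcna, Snap23 and Fra10ac1, at 0.08 to 0.089. For Srebf2 (0.22) they were Cdc42bpb, Galnt10 and Fntb, at 0.13 to 0.14, and for Srebf1 probe 2 (0.54) Trmt10c, Plaat3 and Ublcp1, at 0.19 to 0.27.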

How the data were processed

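Per the file headers, the deposited intensity values come from Agilent Feature Extraction 9.5.3.1 on a 1-colour rat array (probe coordinates on rn4); the submitters' processing notes name version 9.5. The processed intensity had been background-subtracted and detrended within each array by the authors' software. The authors' deposited table gives a signed fold change (a ratio) and a p-value per listed probe and compound; the test behind that p-value is not given in the sources used here.

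Outlier spots were set aside, which removed 425 to 438 probes on each control array and at most 8 elsewhere, so that 27769 of 28129 kept probes were tested against control. Repeated spots were averaged in log2. The 75th percentile of each array, taken after the outlier spots were set aside, was then subtracted. A probe was kept where all arrays of some group read it well above background. A model with a mean for each of the groups was fitted to the 19 samples with limma 3.58.1 (R 4.3.3; 14 residual and 2.66 prior degrees of freedom). P-values were adjusted by Benjamini-Hochberg over all probes of a comparison, and probes were called at an adjusted p under 0.05. The 95% intervals are unadjusted. Figures and motif searches used Python 3.11.15. P-values measure the spread between litter pools, and the number of arrays limits the precision. The fit was tested on simulated data.

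For pathway and marker genes, the probe of highest mean signal stood for each gene. The named genes were all members, up to 4 of each pathway list with the largest differences, and the 3 nearest profiles of each member. Mvd, Sc5d, Dhcr7, Ggps1, Stard4, Gpam, Apoe, Lipa, Nr1h3, Fasn and the markers were named after their values were seen. The members and lists were chosen with earlier results of these data known. Alternatives were other scalings, background correction, filters, variance models, array weights and arrays left out.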

Additional observations from a re-analysis of the deposited data

Results flagged for a closer look

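Of 36 groups of 4 arrays over the 9 tested probes, 2 held an array that stood apart from the other 3 by more than Dixon's 95% critical value, where chance gives about 1 in 20. TOTM 1 read -0.004 on Srebf1 probe 2, and the nearest array of its group read 1.94, a gap of 0.901 of the range. DEHP 4 read -1.98 on Srebf2 probe 1, and the nearest read -1.72, a gap of 0.867 of the range. MEHP, with 3 samples, was not examined this way.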

How the results depend on the processing

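Over 37 settings Insig1 was below control in 145 of 145 values for DEHP, MEHP and TOTM and in 143 of 145 for EHO. The exceptions were probes 2 and 3 with EHO under median scaling. Insig1 was past the threshold in 25, 24, 2 and 50 of these values. Many settings cannot move a difference, such as filters, variance models and arrays left out of other groups. The probes of Insig1 also read the same gene, so the counts of signs do not measure robustness. At the reported setting the median of all probes was itself below 0, at -0.12, -0.13, -0.12 and -0.25 for DEHP, MEHP, TOTM and EHO. With outlier spots kept it was nearer 0, at -0.033, -0.044, -0.037 and -0.158, so part of each negative median came with setting these spots aside. For TOTM that setting gave 71 higher and 43 lower calls, against 1 and 55 as reported. Of 759 values whose 95% interval excluded 0 at the reported setting, 2 changed sign, and of 1427 others 107 did. Here too many of the values could not change with their setting. The cause of the changes was not tested. Leaving out control 2 with MEHP 3, or DEHP 3 with MEHP 4, was chosen after seeing the data. The labels do not say whether equal replicate numbers pair the samples. Correlations with the control of the same number, as deviations from group means, ran from -0.764 to 0.424. Both ends came from MEHP, which holds the similar arrays, so these values cannot decide it. The fit with a replicate block is given for its value alone.

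The 9 tested probes gave 0, 0, 0 and 1 calls for DEHP, MEHP, TOTM and EHO and 0 between compounds. Quantile normalization gave 4, 4, 1 and 4, where it was joined to normexp 4, 4, 1 and 6. The 75th percentile over detected probes gave 2 with DEHP, 1 with MEHP, 4 with EHO and 1 for EHO against TOTM. Requiring detection on all 20 arrays gave 2, 1 and, for EHO against TOTM, 1. EHO had 0 calls with 1 probe per gene name, with only the arrays of both groups (DEHP 2) and without EHO 1 and 2, and 2 with trended robust variances. Array weights gave 3 for DEHP, 5 for MEHP, 2 for TOTM against DEHP and 4 for TOTM against MEHP. MEHP 1 and 2 as 2 samples gave 1 for MEHP. Without MEHP 3 and 4 there were 3 for DEHP, 3 for MEHP, 4 for EHO and 1 each for EHO against DEHP, TOTM against MEHP and EHO against TOTM. Without control 2 and MEHP 3 there were 2, 4 and 4 for DEHP, MEHP and EHO, and 1, 2, 3 and 1 for TOTM against DEHP, EHO against DEHP, TOTM against MEHP and EHO against TOTM. Leaving out single arrays gave 0 to 3 for DEHP, 0 to 4 for MEHP and EHO, 0 to 1 for TOTM against DEHP and EHO against TOTM, 0 to 2 for EHO against DEHP and 0 to 3 for TOTM against MEHP. Calls over all probes ran from 0 to 2047 with DEHP (0 as reported), from 69 to 4266 with MEHP (184), from 0 to 3025 with TOTM (56) and from 2 to 15027 with EHO (9307). EHO had 1324 higher and 7983 lower probes as reported and 5914 and 2967 under median scaling.

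Quantile normalization put Insig2 at 0.042 for DEHP and 0.004 for TOTM, Srebf2 at 0.019 for DEHP, 0.017 for TOTM and 0.33 for EHO and Scap at -0.11 for DEHP, -0.14 for TOTM and -0.36 for EHO. This placed Srebf1 probe 2 at -0.10 for MEHP and Insig1 probe 1 at 0.047 for EHO against MEHP. Normexp with quantile normalization put Insig2 at 0.12 for DEHP, 0.035 for MEHP and 0.10 for TOTM, Srebf2 at 0.061 for DEHP, 0.02 with MEHP, 0.083 with TOTM and 0.24 with EHO and Scap at -0.064 for DEHP, -0.13 for TOTM and -0.25 for EHO. There it put Srebf1 probe 2 at -0.068 for MEHP and Insig1 probe 4 at -0.025 for EHO against MEHP. Median scaling put Insig2 at 0.15 for DEHP, 0.062 for MEHP and 0.087 for TOTM, Srebf1 probe 2 at 0.011 for DEHP and 0.48 for EHO and Srebf2 at 0.035 for DEHP, 0.03 for TOTM and 0.51 for EHO. The same change put Srebf1 probe 1 at 0.13 for MEHP, Scap at 0.12 for MEHP and Insig1 probe 2 at 0.10 for EHO and 0.15 for EHO against TOTM. It put Insig1 probe 3 at 0.15 for EHO and 0.20 for EHO against TOTM, Insig1 probe 1 at 0.29 for EHO against MEHP and Insig1 probe 4 at 0.32 for EHO against TOTM. The 75th percentile taken over probes detected on all arrays put Srebf1 probe 2 at -0.047 for MEHP, Insig2 at -0.15 for EHO and Scap at -0.20 for EHO. This placed Insig1 probe 1 at -0.014 for EHO against DEHP and Insig1 probe 4 at -0.01 for EHO against MEHP. Array weights put Insig2 at 0.012 for DEHP and -0.028 for EHO, Srebf1 probe 1 at 0.015 for MEHP and Scap at 0.032 for MEHP. There it put Insig1 probe 1 at -0.08 for MEHP against DEHP and 0.14 for EHO against MEHP, Insig1 probe 3 at -0.10 for MEHP against DEHP and Insig1 probe 4 at -0.19 for MEHP against DEHP. Keeping outlier spots put Insig2 at 0.069 for DEHP and 0.054 for TOTM, Srebf1 probe 1 at 0.003 for MEHP and Srebf2 at 0 for EHO. Counting MEHP 1 and 2 as 2 samples put Srebf1 probe 1 at 0.072 for MEHP and Insig1 probe 1 at 0.054 for EHO against MEHP. Leaving out MEHP 3 and 4 put Srebf1 probe 1 at 0.53 for MEHP, Srebf1 probe 2 at -0.073 for MEHP and Insig1 probe 1 at -0.42 for MEHP against DEHP and 0.50 for EHO against MEHP. The same change put Insig1 probe 2 at -0.15 for MEHP against DEHP, Insig1 probe 3 at -0.14 for MEHP against DEHP and Insig1 probe 4 at -0.23 for MEHP against DEHP. Leaving out EHO 1 and 2 put Insig2 at -0.094 for EHO, Srebf2 at 0.022 for EHO and Scap at -0.02 for EHO. It put Insig1 probe 4 at -0.10 for EHO against MEHP. The replicate block put Insig1 probe 4 at -0.016 for EHO against MEHP. Leaving out control 2 with MEHP 3 put Insig2 at 0.041 for DEHP and 0.025 for TOTM, Srebf1 probe 1 at -0.003 for DEHP and 0.12 for MEHP and Srebf1 probe 2 at 0.008 for DEHP and 0.051 for EHO. This placed Insig1 probe 1 at -0.26 for MEHP against DEHP and 0.34 for EHO against MEHP, Insig1 probe 2 at -0.095 for MEHP against DEHP and Insig1 probe 3 at -0.14 for MEHP against DEHP. There it put Insig1 probe 4 at -0.26 for MEHP against DEHP. Leaving out DEHP 3 with MEHP 4 put Insig2 at 0.041 for DEHP and Insig1 probe 4 at -0.05 for TOTM against MEHP and -0.21 for EHO against MEHP.

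Leaving out single arrays, differences from control that changed sign ran, for DEHP, from -0.048 to 0.041 for Insig2, -0.003 to 0.35 and -0.24 to 0.008 for Srebf1 probes 1 and 2, and -0.29 to 0.002 for Srebf2. For MEHP they ran from -0.29 to 0.34 and -0.054 to 0.28 for Srebf1 probes 1 and 2. For TOTM they ran from -0.075 to 0.025 for Insig2 and -0.25 to 0.044 for Srebf2. For EHO they ran from -0.019 to 0.13 for Insig2, -0.19 to 0.051 for Srebf1 probe 2, -0.24 to 0.047 for Srebf2 and -0.024 to 0.065 for Scap. For Insig1, MEHP against DEHP ran from -0.26 to 0.31, -0.095 to 0.42, -0.14 to 0.31 and -0.26 to 0.49 on probes 1 to 4, EHO against DEHP from -0.012 to 0.20 on probe 1, TOTM against MEHP from -0.05 to 0.70 on probe 4, and EHO against MEHP from -0.23 to 0.34 on probe 1 and -0.21 to 0.54 on probe 4.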
